A study of Homo sapiens with 6 samples.

Results

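Growth factors of the EGF family, their ERBB receptors and the ephrin receptor EPHA2 were followed after hairpins against PEA15 in HCT116 cells, an established human line from a colorectal carcinoma. The 8 genes TGFA, AREG, EREG, HBEGF, EGFR, ERBB2, ERBB3 and EPHA2 were taken by symbol from the platform's table of probes and genes. Of these 8 genes, 7 had a probe there, with 15 probes among 47323 on the array, and AREG was not analysed here. HCT116 cells stably expressed PEA15 shRNA 2, PEA15 shRNA 1 or a non-silencing hairpin (NS shRNA), all grown in medium with fetal bovine serum. A short hairpin RNA (shRNA) is processed by the cell into a small RNA that lowers the matching messenger RNA, and PEA15 encodes a small protein that binds the ERK kinases. Each of the 3 groups had 2 samples, each on its own Illumina expression array. The labels do not say whether the samples of a group were separate cultures, or whether each line was a clone or a pool. The p-values thus reflect spread that may be technical.

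TGFA, EREG, HBEGF and AREG are made as membrane-bound precursors, which proteases such as ADAM17 cut to release the active growth factor. The ligands bind EGFR, or for HBEGF and EREG also ERBB4, and the receptors pair up. ERBB2 has no known ligand of its own and serves as a partner, and ERBB3 has a weak kinase and signals through its partners. Paired receptors feed adaptors, RAS and the ERK kinases, and colon epithelium uses these ligands to grow and repair. EPHA2 is a receptor tyrosine kinase for ephrin-A ligands on neighbouring cells, and its transcription is known to respond to ERK signalling.

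PEA15 itself had levels of 7.71 and 7.93 with shRNA 2, 8.17 and 8.22 with shRNA 1, and 8.97 and 9.15 with NS shRNA. Levels here are log2 values after background correction and quantile normalization, and a difference of 1 is a doubling. Against NS shRNA, PEA15 fell by 1.23 ± 0.12 (SE) with shRNA 2 (limma, adjusted p = 0.00573). With shRNA 1 the difference was -0.86 ± 0.12 and did not pass (limma, adjusted p = 0.122), although no array overlapped the control arrays, and it passed under 5 of 16 alternative settings. The shRNA 2 call was lost without NS replicate 2 (limma, adjusted p = 0.0745) or shRNA 2 replicate 1 (adjusted p = 0.0592). Between 19441 and 20351 probes were detected on each array. Of 12 markers of colorectal epithelium, 9 were detected on both arrays of every group, EPCAM, CDH1 and CDX2 among them, and CDX1, VIL1 and LGALS4 were not. None of 4 endothelial markers was detected, and the leukocyte markers PTPRC and CD3E were not detected, while CD14, LYZ and CD68 were. Of 8 fibroblast markers, COL1A1 alone was detected, in every group.

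All 7 measured genes were detected on all 6 arrays by at least 1 probe, and 11 of their 15 probes passed the filter, which asked for a detection p under 0.05 on each array of some group. The other 4 probes, 2 for EGFR and 2 for ERBB2, were detected on no array. Each gene was read from its brightest kept probe, and 15967 such rows were tested together with a threshold of 0.05 on the adjusted p. Because the arrays measured bulk RNA, a change in the share of cells that make a transcript and a change in transcript per cell cannot be told apart.

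With shRNA 2, EPHA2 rose, and it was the only 1 of the 7 genes past the threshold, where 1.7% of all rows passed (271 of 15967) and 1.2% passed as higher. It was also the only 1 with an unadjusted p under 0.05, where 17.9% of all rows had one. With shRNA 1, 0 of the 7 genes passed, where 0.0188% of all rows passed (3 of 15967), and 4 of the 7 had an unadjusted p under 0.05, where 11.7% of all rows did. Those 4 were TGFA, HBEGF and EPHA2, which were higher, and ERBB3, which was lower. With the 2 hairpins averaged against NS shRNA, 0 of the 7 passed, where 0.157% of all rows passed, and TGFA, HBEGF and EPHA2 had an unadjusted p under 0.05, where 12.2% of all rows did. Both hairpins are set against the same pair of NS arrays, so their changes are not independent of each other.

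EPHA2 had levels of 8.81 and 8.83 with shRNA 2, 8.48 and 8.35 with shRNA 1, and 8.06 and 7.92 with NS shRNA. The shRNA 2 arrays were the brightest, the NS arrays the dimmest, and the shRNA 1 arrays lay between them with no overlap. The deposited signals, before any correction, were 531 and 572 with shRNA 2, 412 and 432 with shRNA 1, and 340 and 320 with NS shRNA. The order of the groups is the same as in the normalized levels. Against NS shRNA the rise with shRNA 2 was 0.83 ± 0.11 (SE), or 1.78-fold (95% confidence interval 0.58 to 1.08 on the log2 scale; limma, adjusted p = 0.0151). Among 192 rows that rose with shRNA 2, 75 had a larger change than EPHA2 and 116 a smaller one. With shRNA 1 the difference was 0.42 ± 0.11 and did not pass (limma, adjusted p = 0.248). Between the hairpins, shRNA 2 stood 0.41 ± 0.11 above shRNA 1, which did not pass either (limma, adjusted p = 0.08). With the hairpins averaged, the difference from NS shRNA was 0.63 ± 0.09 (limma, adjusted p = 0.0625).

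The EPHA2 call with shRNA 2 was lost in each fit that left out 1 NS or shRNA 2 array. Such fits hold 1 array in a group and made fewer calls over all rows too. The shRNA 2 calls of DUSP5, EFNA4 and EPS15, named below, were lost in each of them too, while that of ADAM19 was kept. The EPHA2 change was 0.90 without NS replicate 1 and 0.76 without NS replicate 2. Without shRNA 2 replicate 1 it was 0.84, and without shRNA 2 replicate 2 it was 0.82. The size of the change stayed between 0.66 and 0.90 over all 16 alternative settings, and 12 of them kept the call.

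**Figure D1:**
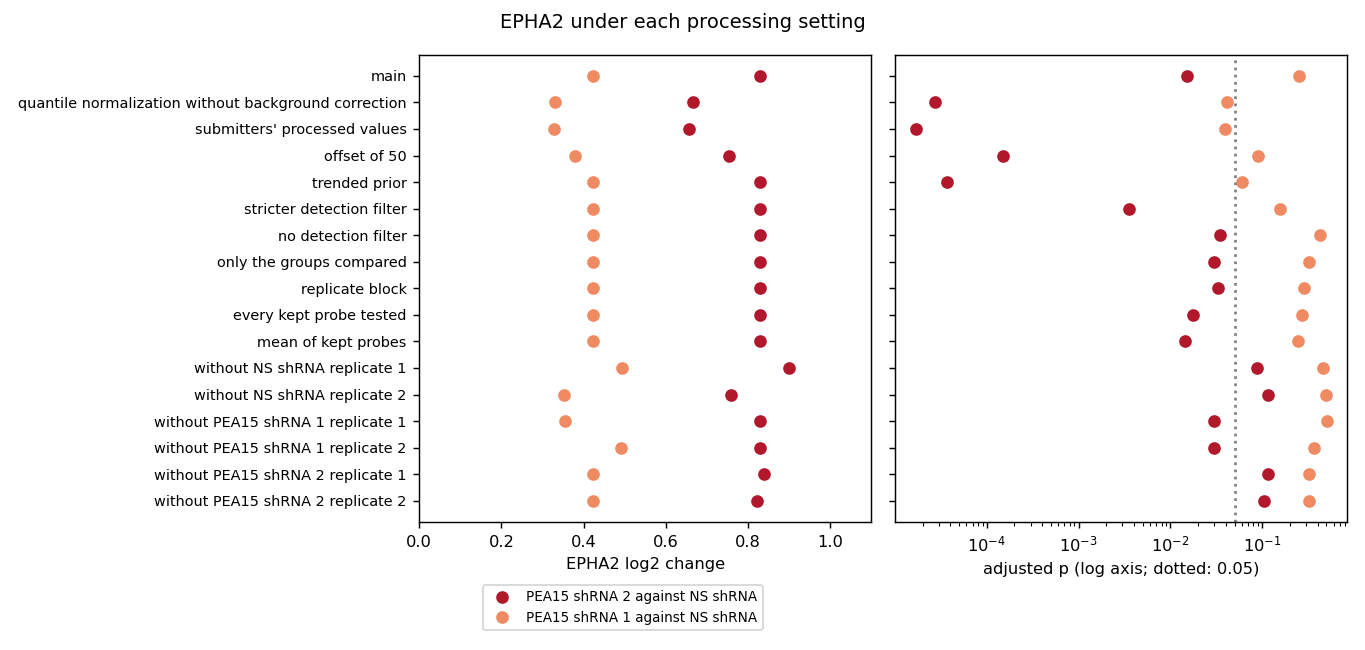
EPHA2 under each processing setting, with the log2 change against NS shRNA on the left and its adjusted p on a log axis on the right; red points are PEA15 shRNA 2 and orange points PEA15 shRNA 1. The shRNA 2 change lies between 0.66 and 0.90. Its adjusted p lies above the dotted line at 0.05 in 4 settings, each of which leaves out 1 NS or shRNA 2 array. The shRNA 1 adjusted p lies below that line in 2 settings, quantile normalization without background correction and the submitters' values.

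Promoter windows were read for the genes of which the RefSeq table holds one (GRCh38.p14), 7 of the 8 with 9 windows, each running from 250 bases before to 50 after a transcription start. The window of EPHA2 is shown because EPHA2 is the gene that passed. It lies at chr1:16156020-16156319 on the minus strand and is given 5′ to 3′ along that strand. Capitals mark the cyclic AMP response element core TGACGT on this strand, which overlaps the same core on the other strand, so that the first capital is 51 bases before the start.

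EPHA2 promoter: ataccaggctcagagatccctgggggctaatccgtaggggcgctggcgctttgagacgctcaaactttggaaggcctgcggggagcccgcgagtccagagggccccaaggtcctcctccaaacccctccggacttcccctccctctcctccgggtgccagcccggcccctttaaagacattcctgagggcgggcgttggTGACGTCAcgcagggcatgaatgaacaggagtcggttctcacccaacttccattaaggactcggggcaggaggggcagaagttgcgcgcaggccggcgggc

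This core stands in 7.98% of 35116 windows of the same length, searched on both strands. Among the other genes it was found in the AREG window and in none of the windows of TGFA, EREG, HBEGF, EGFR and ERBB2. The AP-1 motif TGANTCA, in 7.71% of all windows, was in 1 of 2 EGFR windows and in the ERBB2 window and not in that of EPHA2. The ETS core CCGGAA, in 17.2% of all windows, was in 1 of 2 TGFA windows and in those of AREG and ERBB2. The GC box GGGCGG, in 45% of all windows, was in windows of TGFA, HBEGF, EGFR, AREG and EPHA2. A match describes letters only, since no binding was measured.

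The ligand TGFA, which binds EGFR, had levels of 7.89 and 7.98 with shRNA 2, 8.24 and 8.12 with shRNA 1, and 7.77 and 7.73 with NS shRNA. Its shRNA 1 arrays were the brightest, the NS arrays the dimmest, and no groups overlapped. The difference from NS shRNA was 0.19 ± 0.10 with shRNA 2 (limma, adjusted p = 0.382) and 0.43 ± 0.10 with shRNA 1 (adjusted p = 0.237). Between the hairpins it was -0.24 ± 0.10, with shRNA 2 below shRNA 1 (limma, adjusted p = 0.214). A second TGFA probe had levels of 7.89 and 7.91 with shRNA 2, 8.01 and 8.32 with shRNA 1, and 7.68 and 7.74 with NS shRNA. Both probes thus put the groups in the same order, with differences from NS shRNA of 0.19 and 0.46 by the second probe for shRNA 2 and shRNA 1. With the submitters' own processed values the shRNA 1 difference was smaller, 0.32, and passed (limma, adjusted p = 0.0373).

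HBEGF, a heparin-binding ligand of EGFR and ERBB4, had levels of 7.29 and 7.08 with shRNA 2, 7.41 and 7.10 with shRNA 1, and 6.78 and 6.98 with NS shRNA. All 4 PEA15 hairpin arrays were brighter than both NS arrays, and the hairpins overlapped each other. The difference from NS shRNA was 0.31 ± 0.14 with shRNA 2 (limma, adjusted p = 0.321) and 0.38 ± 0.14 with shRNA 1 (adjusted p = 0.375). It was 0.34 ± 0.12 for the hairpins averaged (limma, adjusted p = 0.333). The SD of the paired arrays was 0.15 with shRNA 2, 0.22 with shRNA 1 and 0.14 with NS shRNA (n = 2 each).

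EREG, or epiregulin, had levels of 8.23 and 7.97 with shRNA 2, 7.82 and 8.16 with shRNA 1, and 7.97 and 7.93 with NS shRNA. The groups overlapped throughout. Its difference from NS shRNA was 0.15 ± 0.14 with shRNA 2 (95% confidence interval -0.19 to 0.49; limma, adjusted p = 0.638) and 0.04 ± 0.14 with shRNA 1 (-0.30 to 0.38; adjusted p = 0.948). These intervals hold differences of either sign, so equal levels were not shown.

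**Figure D2:**
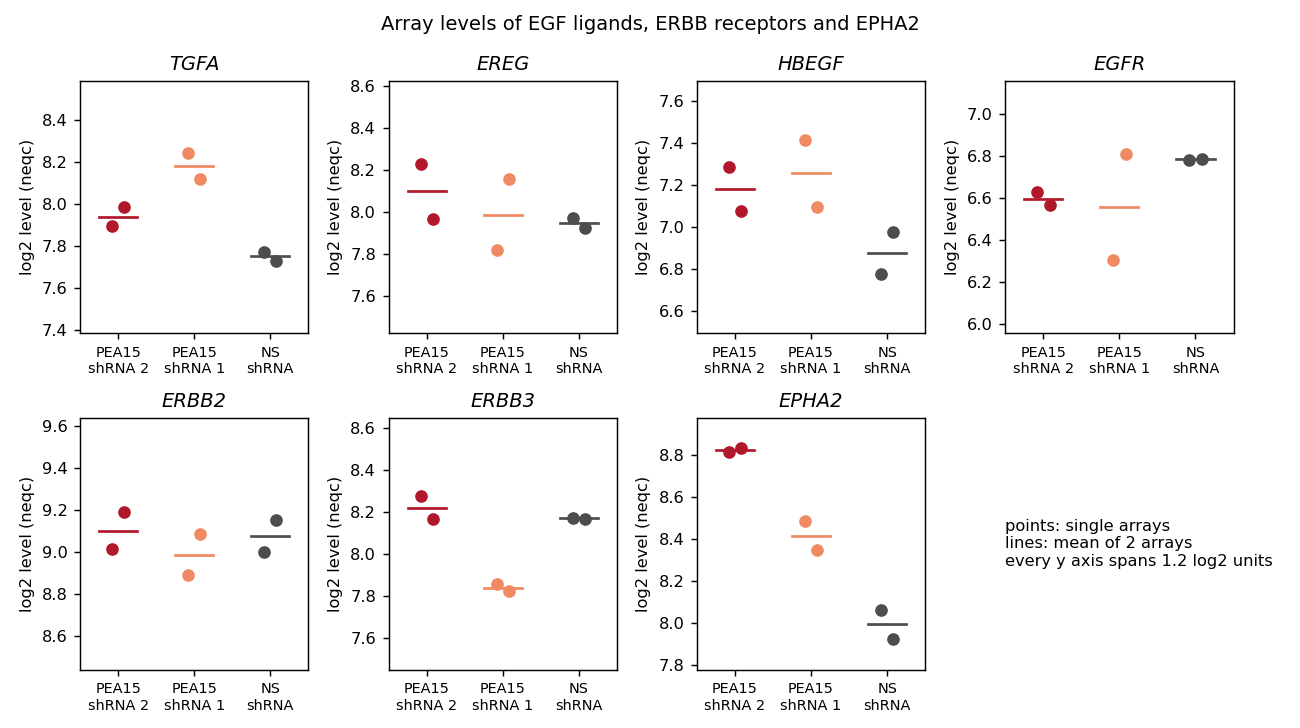
Log2 levels of the 7 measured genes, 1 panel a gene, with a point for each array and a bar at the mean of 2 arrays; the groups run from PEA15 shRNA 2 through PEA15 shRNA 1 to NS shRNA. EPHA2 steps down across the panel with no overlap, TGFA is highest with shRNA 1, ERBB3 is lowest with shRNA 1, and EREG and ERBB2 overlap in every pair of groups.

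EGFR, the receptor of TGFA, had levels of 6.63 and 6.57 with shRNA 2, 6.31 and 6.81 with shRNA 1, and 6.78 and 6.79 with NS shRNA. The shRNA 2 arrays lay below the NS arrays, while the shRNA 1 arrays lay on both sides of them and were the farthest apart of any pair of arrays of a group among the 7 genes as read from their brightest probes. The difference from NS shRNA was -0.19 ± 0.16 with shRNA 2 (limma, adjusted p = 0.59) and -0.23 ± 0.16 with shRNA 1 (adjusted p = 0.642). A second, dimmer EGFR probe had levels of 5.39 and 5.32 with shRNA 2, 5.94 and 5.66 with shRNA 1, and 5.75 and 5.82 with NS shRNA. By that probe EGFR was -0.43 ± 0.12 from NS shRNA with shRNA 2 (limma, adjusted p = 0.134 over 19781 probes) and 0.01 ± 0.12 with shRNA 1 (adjusted p = 0.991). The probes therefore differed on shRNA 1 and shared a direction for shRNA 2 without passing the test. Between the hairpins the signs were opposite, 0.04 by the brighter probe and -0.44 by the dimmer one (limma, adjusted p = 0.91 and 0.0959).

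ERBB2, the partner receptor without a ligand, had levels of 9.01 and 9.19 with shRNA 2, 8.89 and 9.08 with shRNA 1, and 8.996 and 9.15 with NS shRNA. All 3 groups overlapped. The difference from NS shRNA was 0.03 ± 0.12 with shRNA 2 (95% confidence interval -0.26 to 0.31; limma, adjusted p = 0.94) and -0.09 ± 0.12 with shRNA 1 (-0.37 to 0.20; adjusted p = 0.838). Changes of either sign within these intervals cannot be told from no change with 2 arrays a group.

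ERBB3, the receptor with a weak kinase, had levels of 8.28 and 8.17 with shRNA 2, 7.86 and 7.82 with shRNA 1, and 8.17 and 8.17 with NS shRNA. The shRNA 1 arrays were the dimmest, while the shRNA 2 and NS arrays overlapped. The difference from NS shRNA was 0.05 ± 0.10 with shRNA 2 (limma, adjusted p = 0.824) and -0.33 ± 0.10 with shRNA 1 (adjusted p = 0.278). Between the hairpins, shRNA 2 stood 0.38 ± 0.10 above shRNA 1, which did not pass (limma, adjusted p = 0.0764) but passed under 5 of 16 alternative settings. The other ERBB3 probes gave 0.19 and 0.39 for that difference (limma, adjusted p = 0.356 and 0.315 over 19781 probes). Against NS shRNA they gave -0.08 and 0.25 with shRNA 2, and -0.27 and -0.13 with shRNA 1. The last of these probes was detected on 5 of 6 arrays. It missed shRNA 1 replicate 2 and passed the filter through the other groups, and its shRNA 1 arrays overlapped those of both other groups. By the brightest and the next brightest ERBB3 probe the shRNA 1 arrays lay below those of both other groups. No ERBB3 probe passed.

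**Figure D3:**
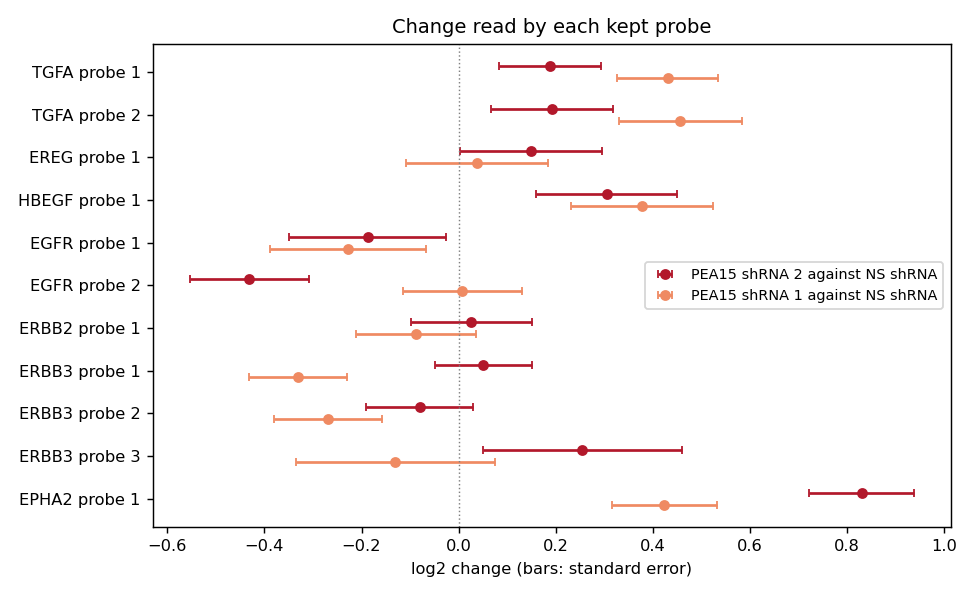
Log2 change against NS shRNA by each of the 11 kept probes, with standard errors as bars, in red for PEA15 shRNA 2 and orange for PEA15 shRNA 1. Both TGFA probes lie together, while the EGFR probes part for shRNA 1, at -0.23 and 0.01.

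Between the hairpins 0 of the 7 genes passed, where 3.32% of all rows passed (530 of 15967). TGFA, ERBB3 and EPHA2 had an unadjusted p under 0.05, where 22.4% of all rows did. Against NS shRNA, the arrays of 3 genes with shRNA 2 were all higher than the controls without overlap, where 24% of all rows were, and those of 1 gene all lower, where 26.1% were. With shRNA 1 the arrays of 3 genes were likewise all higher, where 20.6% of all rows were, and those of 1 gene all lower, where 21.7% were. The median change of the 7 genes was 0.15 with shRNA 2, against -0.0060 over all rows, and 6 of the 7 lay above 0, where 48.9% of all rows did. Among those 6, ERBB2 (0.03 ± 0.12) and ERBB3 (0.05 ± 0.10) lay within their SE of 0. With shRNA 1 the median was 0.04, against -0.0036 over all rows, and 4 of the 7 lay above 0, where 49.0% of all rows did.

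**Figure D4:**
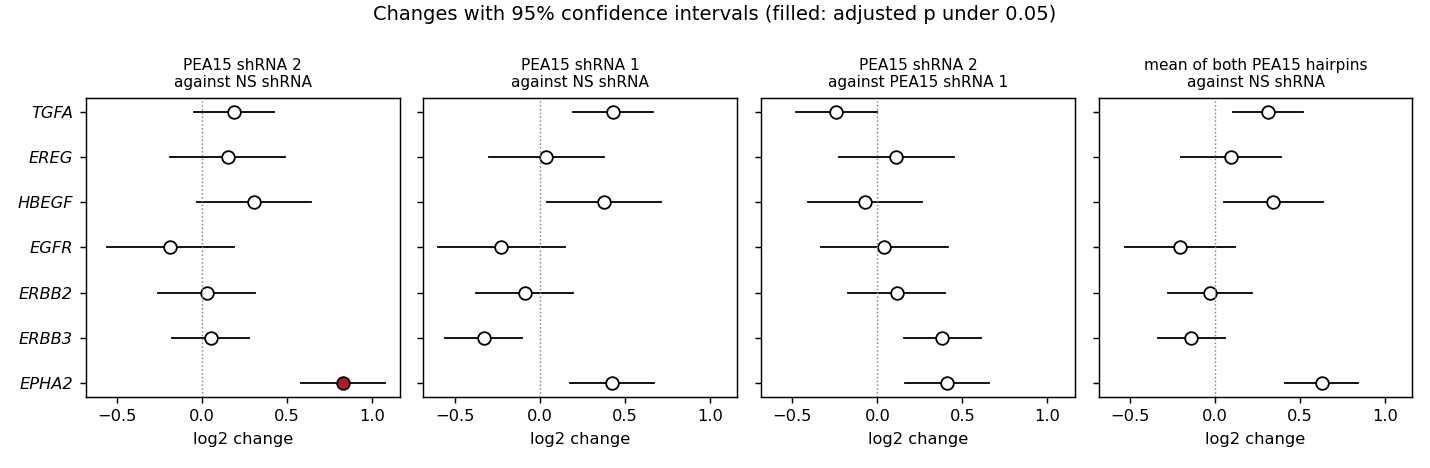
Log2 change of the 7 measured genes in each of the 4 comparisons, with 95% confidence intervals as bars and a filled point where the adjusted p was under 0.05. The EPHA2 change with PEA15 shRNA 2 against NS shRNA, 0.83, is the only filled point.

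Over the 6 arrays, the gene whose profile was most like that of EPHA2 was VEZT (Pearson r = 0.995), followed by ALDH3B1 (0.992). They were picked from 3601 rows whose group means spanned at least 0.3 on the log2 scale, and correlations over 6 arrays in 3 groups describe these arrays only. For TGFA the closest were MLPH (0.992) and FERMT1 (0.983), and for HBEGF ZNF623 (0.981) and SERTM1 (0.973). EREG was closest to LINCMD1 (0.944) and DOT1L (0.924). Among the receptors, EGFR was closest to RIGI (0.967) and PCDHGB6 (0.967), ERBB2 to TSC1 (0.977) and SMC6 (0.967), and ERBB3 to EPHX2 (0.996) and KLHL9 (0.993). The group means of EREG, EGFR and ERBB2 spanned less than 0.3, so their likeness rests largely on differences between arrays of the same group.

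Around the receptors, the remaining EGF family ligands and ERBB4 were mostly too dim to test. Of these 8 genes 2 were tested, NRG4, which did not pass, and betacellulin (BTC), a ligand of EGFR and ERBB4. BTC had levels of 4.52 and 4.71 with shRNA 2, 5.05 and 4.88 with shRNA 1, and 5.28 and 5.70 with NS shRNA. It was detected on neither shRNA 2 array and passed the filter through the other groups, where it is brighter, so its difference with shRNA 2 is given as a description. Its level there is a bound, at least 1.58-fold lower than with NS shRNA (limma, adjusted p = 0.0429, and 0.103 with no detection filter). For that bound the NS mean was set against BTC's shRNA 2 values, raised where they lay below the dimmest detected probe of the array. With shRNA 1 BTC was -0.53 ± 0.16 from NS shRNA (limma, adjusted p = 0.278). The adjusted p with shRNA 2 also missed the threshold without any 1 of the 6 arrays (limma, adjusted p between 0.0713 and 0.184).

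Of 11 ligand-releasing proteases and their regulators, 8 were tested. With shRNA 2, 1 fell, where 0.495% of all rows did, 0 rose and 7 did not pass, and with shRNA 1, 0 passed, where 0.0188% of all rows did. The gene that fell was ADAM19, a membrane metalloprotease known to cut neuregulin. Its levels were 8.73 and 8.70 with shRNA 2, 10.76 and 10.67 with shRNA 1, and 10.13 and 9.97 with NS shRNA. The 2 hairpins thus lay on opposite sides of the control, with no overlap. ADAM19 fell by 1.33 ± 0.11 with shRNA 2 (limma, adjusted p = 0.00224), and with shRNA 1 the difference was 0.66 ± 0.11, which did not pass (adjusted p = 0.144) but passed under 5 of 16 alternative settings. The difference between the hairpins, -2.00 ± 0.11, passed (limma, adjusted p = 0.000451). ADAM9, another membrane metalloprotease, was 0.38 above NS shRNA with shRNA 1 (limma, adjusted p = 0.293), and RHBDF1, a rhomboid pseudoprotease that helps ADAM17 mature, was 0.25 above it with shRNA 2 (adjusted p = 0.228). The median change of the list was 0.07 with shRNA 2 and 0.0004 with shRNA 1.

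Of 18 genes for adaptors, RAS, RAF, MEK and ERK, 11 were tested and 0 passed in any comparison. Of all rows 1.7% passed with shRNA 2, 0.0188% with shRNA 1, 3.32% between the hairpins and 0.157% for the hairpins averaged. Their changes ran from -0.26 to 0.30 with shRNA 2 and from -0.30 to 0.22 with shRNA 1, with medians of 0.07 and 0.06. The adaptor GRB2, which links receptors to SOS, was -0.26 from NS shRNA with shRNA 2 (limma, adjusted p = 0.321), and the exchange factor SOS2 was -0.30 from it with shRNA 1 (adjusted p = 0.391). The docking protein GAB2 was 0.30 above NS shRNA with shRNA 2 (limma, adjusted p = 0.35). MAPK3, which encodes ERK1, a kinase that PEA15 binds, was -0.08 from NS shRNA with shRNA 2 and -0.07 with shRNA 1.

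Of 16 genes listed for inhibition of receptors or for receptor turnover in either direction, 15 were tested. With shRNA 2, 1 rose, where 1.2% of all rows did, and 0 fell, where 0.495% did. With shRNA 1, 0 of 15 passed, where 0.0188% of all rows did. EPS15, an adaptor of clathrin-mediated uptake, had levels of 6.60 and 6.74 with shRNA 2, 5.97 and 5.94 with shRNA 1, and 6.03 and 5.96 with NS shRNA. Its rise with shRNA 2 was 0.67 ± 0.10 (limma, adjusted p = 0.0262), and the call was lost without any 1 of the 6 arrays (adjusted p between 0.0529 and 0.157). With shRNA 1 its difference was -0.04 ± 0.10. CBLB, a ubiquitin ligase for activated receptors, was -0.46 from NS shRNA with shRNA 2 (limma, adjusted p = 0.0718) and -0.36 with shRNA 1 (adjusted p = 0.268), so neither passed. The list's median was -0.01 with shRNA 2 and -0.05 with shRNA 1.

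Between the hairpins, 3 genes of that list passed, 2 higher with shRNA 2, where 2% of all rows were, and 1 lower, where 1.32% were. Higher were EPS15 (0.71) and ERRFI1 (0.64), which binds the EGFR kinase domain and inhibits it, and lower was UBASH3B (-0.79), a phosphatase that binds CBL. ERRFI1 had levels of 12.48 and 12.50 with shRNA 2, 11.73 and 11.97 with shRNA 1, and 12.16 and 12.12 with NS shRNA. UBASH3B had levels of 8.99 and 9.08 with shRNA 2, 9.78 and 9.87 with shRNA 1, and 9.46 and 9.43 with NS shRNA. For both genes the hairpins lay on opposite sides of the control, and neither difference from NS shRNA passed. A second UBASH3B probe gave -0.68 between the hairpins and did not pass (limma, adjusted p = 0.0744).

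Of 22 ERK-responsive genes, 20 were tested. With shRNA 2, 1 rose, where 1.2% of all rows did, 0 fell, where 0.495% did, and 19 did not pass. With shRNA 1, 0 of 20 passed, where 0.0188% of all rows did. DUSP5, a nuclear phosphatase of ERK, rose by 0.86 ± 0.10 with shRNA 2 (limma, adjusted p = 0.0114), close in size to the EPHA2 rise. Its levels were 10.96 and 11.02 with shRNA 2, 10.24 and 10.14 with shRNA 1, and 10.18 and 10.09 with NS shRNA. The shRNA 1 and NS arrays overlapped, and the difference of shRNA 1 from NS shRNA was 0.05 ± 0.10. The DUSP5 call was lost without NS replicate 1 or 2 or shRNA 2 replicate 1 or 2 (limma, adjusted p between 0.0865 and 0.105). FOSL1, a subunit of AP-1, was 0.38 above NS shRNA with shRNA 1 (limma, adjusted p = 0.27) and 0.09 above it with shRNA 2 (adjusted p = 0.693).

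The median of the ERK-responsive list was 0.01 with shRNA 2, where 11 of 20 lay above 0, and 0.15 with shRNA 1, where 14 of 20 did. Between the hairpins 3 of its genes passed as higher with shRNA 2, where 2% of all rows did, and 1 as lower, where 1.32% did. The list as a whole ran the other way in that comparison, with 6 of 20 above 0 and a median of -0.17, where 48.9% of all rows lay above 0. The higher ones were DUSP5 (0.80), the ETS factor ETV5 (0.62) and MYC (0.47), and the lower one was DUSP7 (-0.76), another ERK phosphatase. DUSP7 was detected on 1 of 2 shRNA 2 arrays and passed the filter through the other groups, where it is brighter. Its difference is therefore given as a description. Second probes of ETV5 and MYC gave 0.55 and 0.71 for the same difference and passed (limma, adjusted p = 0.0444 and 0.0195 over 19781 probes), while in that fit the brighter MYC probe and DUSP7 did not (adjusted p = 0.0508 each).

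Of 18 ephrins and other Eph receptors, 9 were tested. With shRNA 2, 1 fell, where 0.495% of all rows did, and 0 rose, where 1.2% did. With shRNA 1, 0 of 9 passed, where 0.0188% of all rows did. EFNA4, a membrane-anchored ephrin-A that can bind EPHA2, had levels of 7.11 and 6.94 with shRNA 2, 7.39 and 7.51 with shRNA 1, and 7.69 and 7.77 with NS shRNA. By this brighter of 2 EFNA4 probes the order of the groups ran opposite to that of EPHA2, with no overlap. EFNA4 fell by 0.70 ± 0.11 with shRNA 2 (limma, adjusted p = 0.0269), and with shRNA 1 its difference was -0.28 ± 0.11. A second EFNA4 probe gave -0.47 with shRNA 2 and -0.10 with shRNA 1, and neither passed (limma, adjusted p = 0.137 and 0.835). EFNA1, another ephrin-A, was -0.06 from NS shRNA with shRNA 2 and -0.14 with shRNA 1 (limma, adjusted p = 0.798 and 0.665). The group means of EFNA1 thus did not take the order seen for EFNA4. The EFNA4 call was lost without NS replicate 1 or 2 or shRNA 2 replicate 1 or 2 (limma, adjusted p between 0.116 and 0.158). EPHA1, an Eph receptor like EPHA2, was -0.35 from NS shRNA with shRNA 2 (limma, adjusted p = 0.111). With shRNA 2, 1 of the 9 lay above 0, with a median of -0.24, and with shRNA 1, 5 of the 9 did, with a median of 0.04, where 48.9% and 49.0% of all rows lay above 0. EFNB2, a transmembrane ephrin, was lower with shRNA 2 than with shRNA 1 by -0.91 (limma, adjusted p = 0.016).

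**Figure D5:**
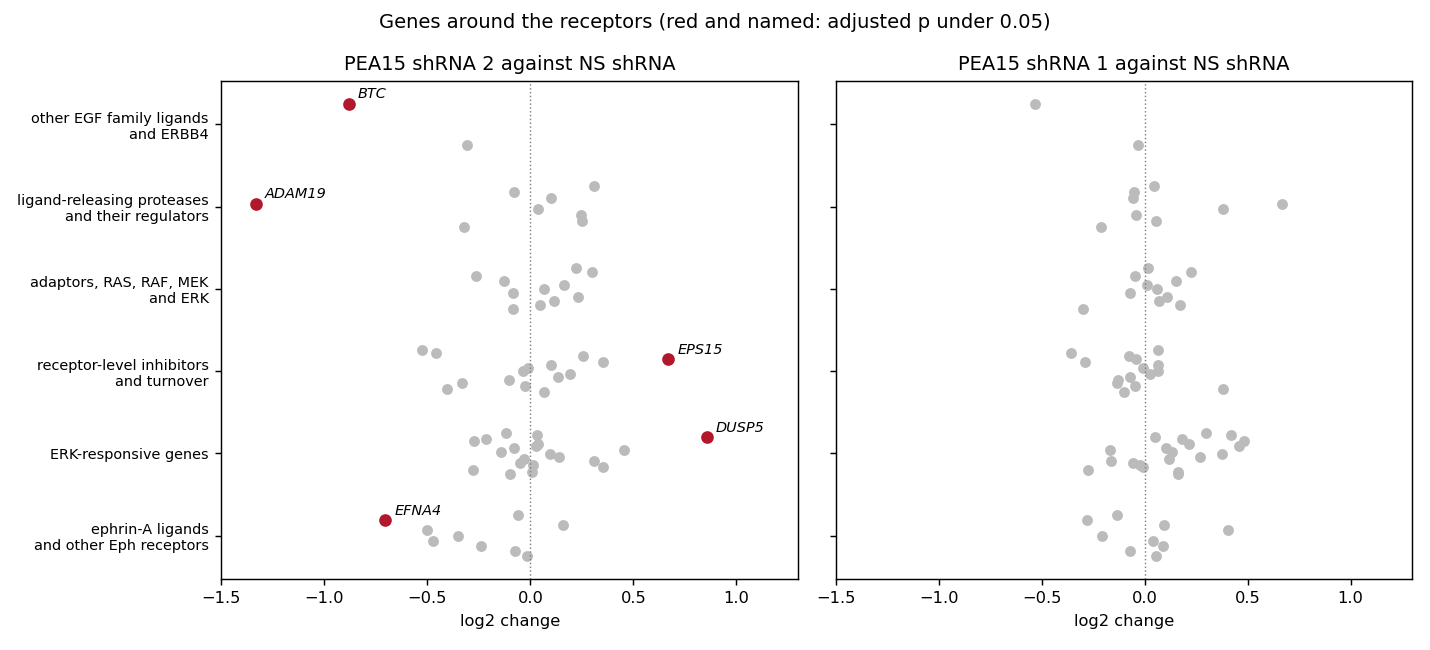
Log2 change against NS shRNA of the tested genes of 6 lists around the receptors, with PEA15 shRNA 2 on the left and PEA15 shRNA 1 on the right; each point is a gene, and points past an adjusted p of 0.05 are red and named. BTC, ADAM19, EPS15, DUSP5 and EFNA4 are named with shRNA 2 and none with shRNA 1. The BTC point is a description, since BTC was detected on neither shRNA 2 array.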

How the data were processed

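Total RNA was labelled with biotin and hybridised to Illumina arrays, per the labels' protocols. The deposited non-normalized table gives, for 47323 probes on each array, a mean bead intensity, not log-transformed, with a detection p-value beside it. The authors' deposited series table holds log2 values made with lumi, per the submitters' processing notes, and served as an alternative.

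Intensities were normalized with neqc of limma 3.58.1 (R 4.3.3), which subtracts a background inferred from the detection p-values, adds an offset of 16 and applies quantile normalization. Folds of dim genes are understated on this scale, and levels of different probes were not compared. Of 47323 probes 30113 had 1 listed symbol, 8 had several and 17202 were not listed and stayed as rows of their own. Kept probes numbered 19781.

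The groups and replicate numbers came from the sample titles. All 6 arrays entered a single linear model of the 3 group means, fitted with lmFit and eBayes (3 residual and 4.54 prior degrees of freedom). Tests were two-sided, with Benjamini-Hochberg adjustment over 15967 rows. Second probes were tested in a fit of all kept probes. Precision is limited by 2 arrays a group. The scripts were tested on simulated data.

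The genes and lists were chosen with earlier results of these data known. All 8 genes are named, as are genes of each list past the threshold, up to 3 with the smallest p in either hairpin against NS shRNA, and for each tested gene the 2 most alike in profile. MAPK3 and EFNA1 were named after their values were seen. Alternatives changed the background correction, offset, prior, filter, groups fitted, replicate block, probe choice and arrays included. Same-numbered arrays deviated from their group means with correlations of -0.02, 0.05 and 0.08 between groups. These values do not show a pairing by number and, taken after quantile normalization, cannot exclude one.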

Additional observations from a re-analysis of the deposited data

Results flagged for a closer look

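None of the 7 measured EGF family, ERBB and EPHA2 genes differed between the hairpins past the threshold. Of 65 tested genes of the lists around them 9 did, where 3.32% of all rows did. The lists were chosen with earlier results of these data known, so these shares do not test for an excess. Each hairpin was carried by a line of its own, so hairpin and line cannot be told apart. DUSP7 passed the filter through the groups where it is brighter, so its difference is given as a description. Lower with shRNA 2 than with shRNA 1 were ADAM19 (-2.00 on the log2 scale; limma, adjusted p = 0.000451), EFNB2 (-0.91; adjusted p = 0.016), UBASH3B (-0.79; adjusted p = 0.0103) and DUSP7 (-0.76; adjusted p = 0.0486). Higher with shRNA 2 were DUSP5 (0.80; limma, adjusted p = 0.0103), EPS15 (0.71; adjusted p = 0.016), ERRFI1 (0.64; adjusted p = 0.0307), ETV5 (0.62; adjusted p = 0.0238) and MYC (0.47; adjusted p = 0.0454). Without any 1 of the 4 hairpin arrays the calls of UBASH3B, DUSP7, DUSP5, EPS15, ERRFI1, ETV5 and MYC were lost (limma, adjusted p between 0.059 and 0.191). EFNB2 was lost without shRNA 2 replicate 1 or 2 or shRNA 1 replicate 2 (adjusted p between 0.0734 and 0.0968). ADAM19 passed without each array in turn. Without either NS array DUSP7, ERRFI1, ETV5 and MYC were also lost (limma, adjusted p between 0.0516 and 0.0802).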

How the results depend on the processing

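Over the 16 settings tried (15 for the hairpins averaged, where fitting only the groups compared leaves nothing out), EPHA2 and TGFA kept their direction in every comparison. With shRNA 1 the count of the 7 genes past the threshold was 2 (TGFA and EPHA2) with quantile normalization without background correction and 2 with the submitters' values. With shRNA 2 it ran from 0 to 1 when 1 array was left out. Between the hairpins it was 2 (ERBB3 and EPHA2), and for the hairpins averaged 1 (EPHA2), with quantile normalization only, the submitters' values, an offset of 50, a trended prior and the stricter detection filter. These settings called more of all rows too. In that order they called 1759, 1785, 1508 and 1653 of 15967 and 1139 of 12278 between the hairpins. The main fit called 530. For the hairpins averaged they called 275, 283, 202, 246 and 71, where the main fit called 25. With shRNA 1, quantile normalization only and the submitters' values called 148 and 162 of 15967 rows, where the main fit called 3. EGFR between the hairpins turned to -0.20 with the mean of kept probes, where the second probe enters. When 1 array was left out, changes that crossed 0 ran as follows: with shRNA 1, EGFR from -0.48 to 0.024, ERBB2 from -0.19 to 0.011 and EREG from -0.13 to 0.21; with shRNA 2, ERBB2 from -0.062 to 0.11 and ERBB3 from -0.0020 to 0.10; between the hairpins, EREG from -0.059 to 0.28, HBEGF from -0.23 to 0.085 and EGFR from -0.21 to 0.29; for the hairpins averaged, ERBB2 from -0.11 to 0.047. Those fits kept the normalization of all 6 arrays and assume that a lone array varies like the other groups.

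The replicate block changed no call of the 7 genes (EPHA2 with shRNA 2 0.83, limma, adjusted p = 0.0333). Over all rows it left 142 calls with shRNA 2, 333 between the hairpins and 0 in the other comparisons. The calls of EPS15 and EFNA4 with shRNA 2 were lost with the block (limma, adjusted p = 0.0553 and 0.0575). BTC, whose difference is a description, also missed the threshold (limma, adjusted p = 0.0659). Calls over all rows ran from 0 to 162 with shRNA 1, 17 to 1004 with shRNA 2, 35 to 1785 between the hairpins and 0 to 283 for the hairpins averaged. The submitters' values gave the highest of each, and of their calls 554 of 1004 were higher with shRNA 2, where the main count was 192 of 271, and 82 of 162 with shRNA 1, where it was 3 of 3. The cause was not tested. The change of EPS15 with shRNA 2 was 0.33 at its smallest and that of BTC -0.29 where no background was subtracted or the submitters' values were used. Without a detection filter BTC, EPS15 and EFNA4 with shRNA 2 were lost (limma, adjusted p = 0.103, 0.0522 and 0.0564), and with only the groups compared BTC and EPS15 were (0.0713 and 0.0529). Between the hairpins ERRFI1, DUSP7 and MYC were lost with the block (limma, adjusted p = 0.0509, 0.069 and 0.0667), without a detection filter (0.0638, 0.112 and 0.0746) and with only the groups compared (0.0658, 0.0737 and 0.0802), ETV5 with only the groups compared (0.0516), and DUSP7 and MYC with every kept probe tested (0.0508 each). PEA15 and ADAM19 with shRNA 1 passed with quantile normalization only, the submitters' values, an offset of 50, a trended prior and the stricter detection filter.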
